A study of Mus musculus with 4 samples.

Results

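Type 1 conventional dendritic cells (cDC1) of the mouse pancreas were examined. They were taken as the cell barcodes of both pancreas libraries with at least 500 detected genes, at most 10% mitochondrial UMIs (unique molecular identifiers, the counted molecules), at least 2 UMIs of Xcr1 and Clec9a together, no UMI of Cd3e, Cd3d or Cd3g, and at most 1 UMI of Cd79a and Ms4a1. The rule selected 88 members of 10794 kept pancreas barcodes, 35 in the control library and 53 in the CD4-Cre library. Across all 4 libraries 19357 of 21074 listed barcodes were kept. The members were selected on measured Xcr1 and Clec9a counts, so the levels of these 2 genes are a description.

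The pancreas libraries came from sorted CD45+ leukocytes of pre-diabetic female mice aged 12 weeks, with cells of 4 mice pooled in each. The control animals were Ocabfl/fl and the others Ocabfl/fl.CD4-Cre. All animals therefore carried floxed Ocab (Pou2af1, a transcriptional coactivator best known from B cells), and Cre driven by Cd4 regulatory sequences acts in T cells. The other pair of libraries held CD3-selected cells of pancreatic lymph nodes from 8-week-old females (5 mice pooled in each) and was not used for the members. There was 1 library per genotype and tissue, so differences between genotypes have no replicate check and were not tested.

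Dendritic cells take up antigen and present it to T cells. The cDC1 lineage depends on the transcription factors IRF8 and BATF3, carries the chemokine receptor XCR1 and the dead-cell receptor CLEC9A, and is known for presenting antigen from other cells on MHC class I. The cDC2 lineage depends on IRF4 and KLF4 and is better known for presentation on MHC class II. After maturation either lineage gains the chemokine receptor CCR7, which guides cells to lymph nodes.

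Members had a median of 16844 UMIs per barcode in control (range 5963 to 38196) and 15499 in CD4-Cre (1771 to 29602). The medians over all kept barcodes were 3656 and 3680. The comparison barcodes had at least 2 UMIs of Cd209a, Clec10a and Mgl2, no Xcr1 or Clec9a UMI, and met the same T and B cell clauses. They numbered 144 in control and 140 in CD4-Cre, with medians of 10532 and 10654 UMIs, and are called the cDC2 comparison here. A C1q UMI, a mark of macrophages, was present in 151 of these 284 barcodes. The pancreas libraries shared 46 listed barcode sequences, none of them a member's.

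Both defining genes are printed with their promoter windows, because their UMIs alone decided membership, together with that of Cd207, the only one of the 12 genes named below as higher in cDC1 whose window held the AP-1 and BATF motif. Xcr1 (ENSMUSG00000060509) lies on the minus strand at chr9:123852315-123862029, Clec9a (ENSMUSG00000046080) on the plus strand at chr6:129408862-129424763 and Cd207 (ENSMUSG00000034783) on the minus strand at chr6:83671215-83677857 in GRCm38. Each RefSeq window (GRCm38.p6) runs from 250 bases before to 50 bases after the start and is written 5′ to 3′ on the gene's strand. Capitals mark TGANTCA, searched on both strands.
Xcr1, chr9:123861980-123862279, minus strand: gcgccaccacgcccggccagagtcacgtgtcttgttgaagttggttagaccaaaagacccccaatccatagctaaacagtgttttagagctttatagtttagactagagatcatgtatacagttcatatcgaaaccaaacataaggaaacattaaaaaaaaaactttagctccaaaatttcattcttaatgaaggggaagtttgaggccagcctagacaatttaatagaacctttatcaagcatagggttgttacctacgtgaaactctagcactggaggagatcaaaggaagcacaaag
Clec9a, chr6:129408612-129408911, plus strand: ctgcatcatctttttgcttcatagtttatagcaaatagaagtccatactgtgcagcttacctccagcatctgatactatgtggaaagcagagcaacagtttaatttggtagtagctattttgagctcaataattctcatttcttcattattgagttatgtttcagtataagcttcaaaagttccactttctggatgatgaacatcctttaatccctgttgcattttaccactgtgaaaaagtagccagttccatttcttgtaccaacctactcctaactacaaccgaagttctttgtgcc
Cd207, chr6:83677808-83678107, minus strand: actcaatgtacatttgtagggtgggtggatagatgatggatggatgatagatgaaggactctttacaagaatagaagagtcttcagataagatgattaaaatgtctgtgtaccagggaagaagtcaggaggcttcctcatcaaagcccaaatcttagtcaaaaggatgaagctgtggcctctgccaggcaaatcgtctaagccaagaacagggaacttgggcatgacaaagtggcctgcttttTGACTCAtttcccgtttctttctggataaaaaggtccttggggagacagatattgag
In the Cd207 window the motif began 7 bases before the start. TGANTCA was present in 7.81% of all 32851 windows of this length. A window was available for 11 of the 12 higher and 10 of the 12 lower genes, and the motif was found in 1 gene of each. The PU.1 motif GAGGAAGT was present in 3.2% of all windows, in 2 of those 11 genes (Bcl2l14 and Tm4sf5) and in 1 of those 10 (Retnla). Some of these genes had more than 1 window, so the counts per gene are not directly comparable with the shares per window.

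The rule collected a mixed set. Xcr1 UMIs were present in 62 of 88 members (54 with both genes and 8 with Xcr1 only), and 26 had Clec9a only. Of the 62 members with Xcr1, 58 were free of markers of other classes. Of the 26 with Clec9a only, 22 carried such markers. In all, 26 members carried markers of another class, 10 of 35 in control and 16 of 53 in CD4-Cre. At least 3 C1q UMIs (macrophage) were found in 7 control and 6 CD4-Cre members, at least 2 Cd209a, Clec10a and Mgl2 UMIs (cDC2) in 6 and 13, and at least 3 Siglech UMIs (plasmacytoid dendritic cells) in 1 and 2. The remaining 62 members, 25 in control and 37 in CD4-Cre, are called members without other-class markers. This division was made after the values were seen. The other-class markers differed by library. Over all members the 8 macrophage markers summed to 4159 CPM in control and 1422 CPM in CD4-Cre, and the 3 cDC2 markers to 117 and 837 CPM. B cell markers, of which the rule limited 2, summed to 166 and 219 CPM with 5 of 8 detected and Pax5 among those at 0, and NK cell markers to 77.9 and 118 CPM with 5 and 6 of 7 detected. Islet markers summed to 409 and 35.1 CPM and exocrine markers to 245 and 595 CPM. The part of these markers in the results was not tested.

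The transcription factor Irf8 and the monocyte and macrophage lysozyme gene Lyz2 showed the mixture. In members without other-class markers Irf8 had a median of 1722 CPM (UMIs of the gene scaled to 1e+06 UMIs of the barcode) in control, with a range of 70.1 to 2648, and of 1844 CPM in CD4-Cre (0 to 4202). In members with at least 3 C1q UMIs the Irf8 medians were 335 and 191 CPM. Lyz2 ran the other way, with medians of 103 and 239 CPM without other-class markers against 16460 and 13150 CPM with C1q. The 3 members with at least 3 Siglech UMIs had Irf8 between 3571 and 5921 CPM, but no Xcr1 UMI and only 345.6 to 816.5 CPM of Cst3, a cystatin gene abundant in conventional dendritic cells. The label cDC1 is therefore met by the 62 members without other-class markers as a group, and not by the whole set.

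**Figure D1:**
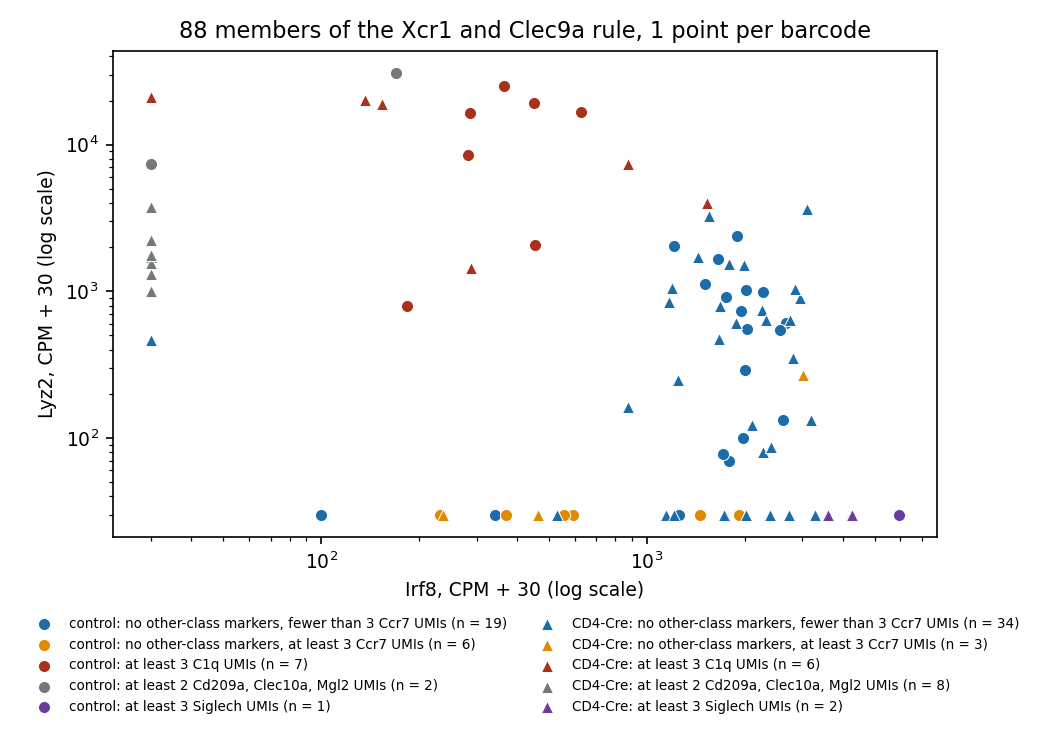
Irf8 against Lyz2 in each of the 88 members, both in CPM per barcode plus 30 on log axes; circles are control and triangles CD4-Cre barcodes, coloured by markers. Most members without other-class markers lie at high Irf8, around medians of 1722 and 1844 CPM, and members with C1q UMIs lie at high Lyz2.

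At the threshold, the 24 members with exactly 2 UMIs had median Irf8 levels of 424 CPM in control (9 barcodes) and 0 CPM in CD4-Cre (15). The 52 barcodes just outside, with exactly 1 UMI and the same T and B cell clauses, had medians of 88.4 (17 barcodes) and 86.5 CPM (35). A Ccr7 UMI was present in 4 of those 17 and 1 of those 35, with up to 9034 CPM. Another 40 kept barcodes had at least 2 Xcr1 and Clec9a UMIs but were left out by the T and B cell clauses, 36 of them with Cd3 UMIs. Among kept barcodes with Cd3 UMIs and at most 1 B cell UMI, at least 2 Xcr1 and Clec9a UMIs were found in 11 of 2466 in control (0.446%, exact 95% interval 0.223% to 0.797%) and in 20 of 4350 in CD4-Cre (0.460%, 0.281% to 0.709%). All 2466 and 4350 T cell barcodes had medians of 3484 and 3611 UMIs, far below those of the members. The depth of the 11 and 20 among them is not given.

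The share of members in the 2 libraries did not differ beyond counting error. The share of kept barcodes was 0.840% in control (35 of 4168, exact 95% interval 0.586% to 1.17%) and 0.80% in CD4-Cre (53 of 6626, 0.60% to 1.05%). The difference, CD4-Cre minus control, was -0.0399 percentage points with an interval of -0.416 to 0.30, which covers counting error only. The sign turned after thinning to 3000 UMIs (0.241% and 0.535%, difference 0.294 points, -0.0144 to 0.576) and among barcodes without T and B cell UMIs (5.39% and 7.74%). Members were 19.6% of cDC1 and cDC2 comparison barcodes together in control (35 of 179) and 27.5% in CD4-Cre (53 of 193), a difference of 7.91 percentage points (-0.754 to 16.4). With members without other-class markers and comparison barcodes without C1q UMIs, these shares were 27.8% and 35.2%. Sorting, dissociation and pooling of mice act on all of these shares, and their part was not tested.

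Gene levels in cDC1 and cDC2 barcodes were compared on UMIs summed per library and class. edgeR's quasi-likelihood test was fitted to the 4 sums with the library as a block, which left 1 residual degree of freedom. Its p-values rest on how far the class difference varied between the 2 libraries, with spread shared over genes. The libraries also differ in genotype and are not replicates. In such sums, fewer barcodes of a kind and less RNA per barcode cannot be told apart. The 10 genes of the rule were left out of all counts. Of 8403 genes tested, 552 were higher in cDC1 (6.57%) and 647 lower (7.7%) at an adjusted p under 0.05. With members without other-class markers and comparison barcodes without C1q UMIs, 678 of 6728 genes were higher (10.1%) and 830 lower (12.3%). The 2 fits shared 494 higher and 498 lower genes. The shares of these 2 fits are the background for their list counts below. List counts from other fits are given without a share over all genes and are description only. Those fits are DESeq2, the one without C1q-bearing comparison barcodes alone, and the one without Ccr7 members.

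Several of the genes highest above cDC2 were not found in the comparison at all. Bcl2l14, a member of the Bcl-2 family, was counted 205 times in the control members, 69 times in the CD4-Cre members and never in the cDC2 sums. With a floor of 3 counts over both libraries it was at least 201-fold higher in cDC1 (edgeR adjusted p = 0.000301). Gcsam, a regulator of lymphocyte signalling and motility, had 75 and 116 UMIs against 0 and 0, at least 140-fold higher (edgeR adjusted p = 0.000476). Cd207, which encodes the lectin langerin, had 22 and 69 UMIs in 7 and 16 barcodes against 0 and 0, at least 66.9-fold higher (edgeR adjusted p = 0.00141). Cacnb3, a calcium channel subunit, had 90 and 16 UMIs against 0 and 0, at least 77.9-fold higher (edgeR adjusted p = 0.00128). The 4 genes were present in both cDC1 sums and in neither cDC2 sum. By DESeq2 none of the 4 passed (adjusted p = 0.122, 0.117, 0.262 and 0.253 in the order given), nor did Bcam, named below.

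Ccr7 reached 362 CPM in control and 89.6 CPM in CD4-Cre members against 1.30 and 0.611 CPM in cDC2, a log2 fold change of 7.75 ± 0.33 (SE, edgeR adjusted p = 0.000131). Ccr7 barcodes with fewer than 2 UMIs of Cd209a, Clec10a and Mgl2 could not enter the cDC2 comparison. In cDC1 the Ccr7 UMIs sat in 7 and 4 members. By contrast Ly75, the antigen uptake receptor DEC-205, was found in 13 and 18 members at 94.1 and 60.6 CPM, against 0 and 3.06 CPM in cDC2 (log2 fold change 5.54 ± 0.63, edgeR adjusted p = 0.00267). Snx22, a sorting nexin, was spread over 18 and 30 members at 92.5 and 125 CPM against 7.78 and 1.83 CPM (4.54 ± 0.45, edgeR adjusted p = 0.00181). Ttc39a, Nudt17, Serpinb6b (a protease inhibitor), Tm4sf5 and Tnfrsf4 (the costimulatory receptor OX40) completed the 12 genes, with log2 fold changes of 4.83 to 6.06.

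Genes highest in the cDC2 comparison included secreted and inflammatory products. The comparison was itself mixed. Its 8 macrophage markers summed to 11210 CPM in control and 6528 CPM in CD4-Cre, against 4159 and 1422 CPM in the members. Its monocyte markers summed to 1274 and 1556 CPM, against 673 and 727 CPM. Whether the genes below came from cDC2 or from such other cells was not tested. Retnla, a secreted protein of alternatively activated myeloid cells, had 15927 and 18833 CPM in cDC2 and 92.5 and 9.69 CPM in cDC1 (log2 fold change -8.58 ± 0.65, edgeR adjusted p = 0.000907). All 57 Retnla UMIs of the control members came from 1 barcode, and members without other-class markers had 0. Fn1, fibronectin, had 1070 and 1394 CPM against 21.1 and 2.42 CPM (-6.80 ± 0.49, edgeR adjusted p = 0.000682). Ear2, a ribonuclease gene with close paralogs whose reads may be shared, had 495 and 689 CPM against 8.11 and 9.69 CPM (-6.00 ± 0.22, edgeR adjusted p = 0.000117). Cxcl2, a neutrophil attractant, had 277 and 285 CPM against 3.24 and 0 CPM.

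Of the other 8 lower genes, 6 had no UMI in either cDC1 sum. With the same floor, these were at least 27.8-fold lower for the adhesion molecule Bcam, 12.9-fold for coagulation factor gene F10, 13.0-fold for the neutrophil attractant Cxcl1, 11.9-fold for Ear10, 9.68-fold for the gelatinase Mmp9 and 8.92-fold for Sdc1, syndecan. A single UMI was found in the control members for Cd209f, a lectin with close paralogs, and for Spink2. Without C1q-bearing comparison barcodes, and with members without other-class markers, Cxcl1, Ear10, Mmp9 and Cd209f fell under the count filter and were not tested, as did Nudt17 among the higher genes. In the other 19 named genes that restricted fit gave the same direction and call.

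**Figure D2:**
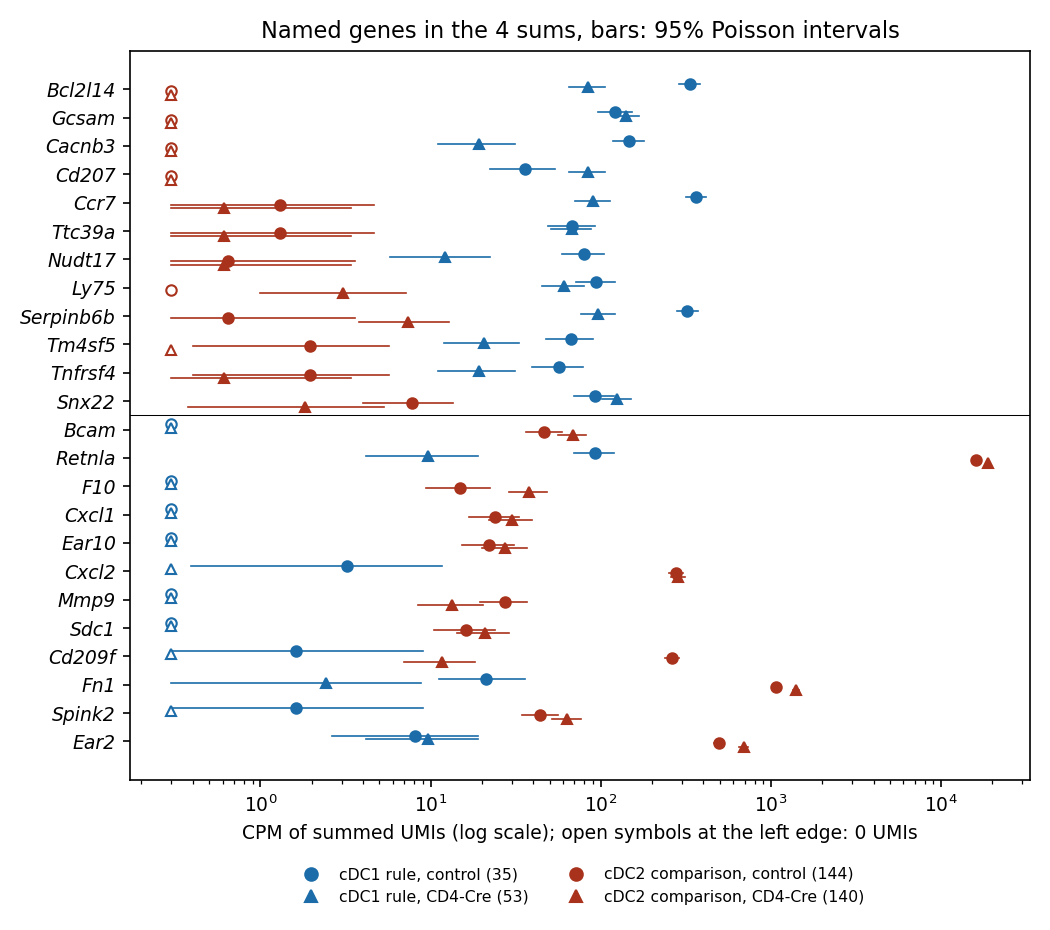
CPM of summed UMIs, on a log axis, for the 12 genes named as higher (above the line) and the 12 named as lower in cDC1; blue marks the cDC1 rule and red the cDC2 comparison, circles control and triangles CD4-Cre. Bars are 95% Poisson intervals cut at the left edge, where open symbols stand for 0 UMIs; Retnla reaches 18833 CPM in the CD4-Cre cDC2 sum.

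Genes of the cDC1 programme other than Xcr1 and Clec9a were mostly higher in members. Of 24 cDC1 identity genes tested, 20 were higher, none was lower and 4 did not pass, with a median log2 fold change of 2.87 beside 0.0038 over all genes tested. Irf8 had 1337 and 1654 CPM in cDC1 against 132 and 152 CPM in cDC2 (log2 fold change 3.44 ± 0.14, edgeR adjusted p = 0.000117). Wdfy4, needed for cross-presentation by cDC1, had 329 and 412 CPM against 69.4 and 40.9 CPM (2.82 ± 0.27, edgeR adjusted p = 0.00156). Ppt1, a lysosomal thioesterase gene, had 712 and 1147 CPM against 70.0 and 72.1 CPM. Cadm1, an adhesion molecule of cDC1, had 77.9 and 70.3 CPM against 11.0 and 9.17 CPM.

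Batf3 was not among them. This factor, required for cDC1 development, had 225 and 222 CPM in cDC1 and 244 and 284 CPM in cDC2 (log2 fold change -0.19 ± 0.15, edgeR adjusted p = 0.473). With members without other-class markers and the comparison without C1q it was -0.15 (edgeR adjusted p = 0.601). Hepacam2 (0.37), Fkbp1b (-0.01) and the scavenger receptor gene Cd36 (-0.02) also did not pass, but Cd36 was higher in that restricted fit, at 1.67 (edgeR adjusted p = 0.000192).

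Of 21 cDC2 identity genes tested, 15 were lower in cDC1, 1 was higher (Clec12a) and 5 did not pass. The median log2 fold change was -1.27 in all members and -3.18 in the restricted fit, where 19 of 21 were lower. Sirpa, the CD47 receptor of cDC2 and macrophages, had 125 and 58.1 CPM in cDC1 against 239 and 230 CPM, a log2 fold change of -1.38 that became -4.98 in the restricted fit. Zeb2, a transcription factor of cDC2 and monocytes, went from -2.30 to -6.04, and Itgam, which encodes CD11b, from -3.49 to -6.36. Csf1r, a receptor for macrophage growth factor, went from -1.99 to -4.62. Of 12 genes shared by dendritic cells, 8 were higher in cDC1, among them Flt3, the receptor for the dendritic cell growth factor FLT3L (94.1 and 120 CPM against 21.4 and 18.9 CPM), and none was lower. In the restricted fit 7 were higher and Itgax, which encodes CD11c, was lower (-0.79, edgeR adjusted p = 0.0084).

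**Figure D3:**
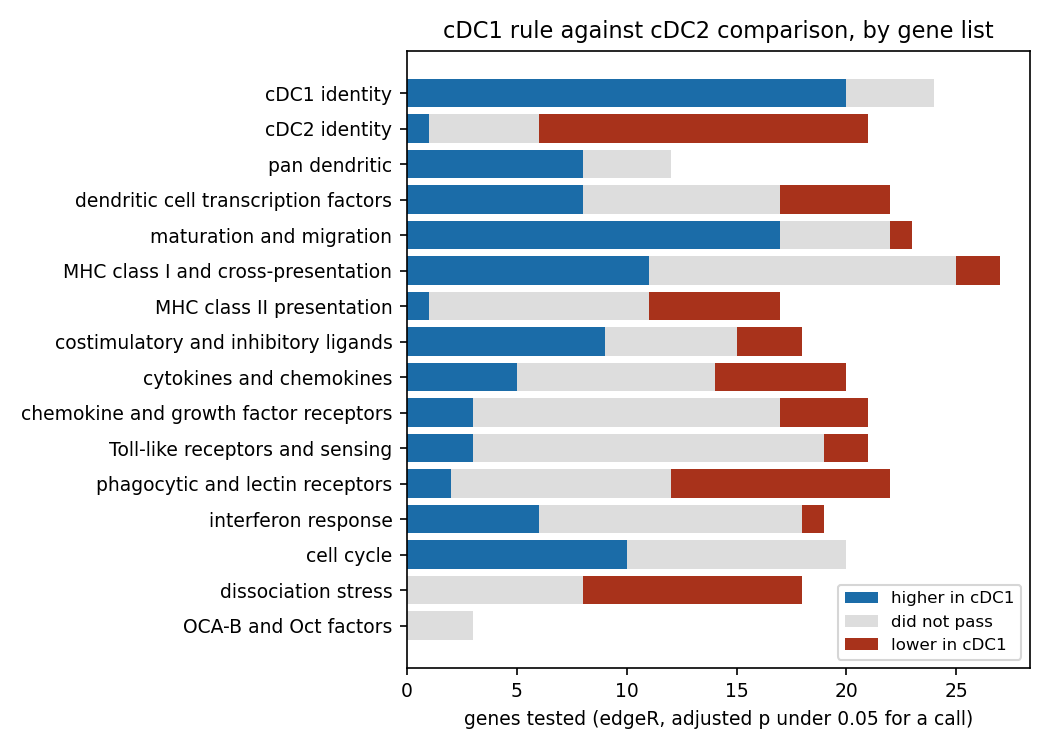
Number of genes tested in each of 16 lists, split into higher in cDC1 (blue), not passing (grey) and lower in cDC1 (red) at an edgeR adjusted p under 0.05. The cDC1 identity list has 20 of 24 genes higher, and the dissociation stress list has 10 of 18 lower and none higher.

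Antigen presentation differed by pathway. Of 27 MHC class I and cross-presentation genes, 11 were higher in cDC1, 2 were lower and 14 did not pass (median log2 fold change 0.46). The higher genes were the peptide transporter Tap1 (273 and 252 CPM against 105 and 76.4 CPM) and Tap2, the immunoproteasome subunits Psmb8 and Psmb9, the class I transactivator Nlrc5 and 6 others. The heavy chain gene H2-K1 (0.46, edgeR adjusted p = 0.0562) and the light chain gene B2m (0.39, edgeR adjusted p = 0.101) did not pass, and H2-D1 was at 0.01 (edgeR adjusted p = 0.979). In the restricted fit 17 of the 27 were higher, H2-K1 and B2m among them. Cybb, an oxidase subunit, and Rac2 were the 2 lower genes.

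Of 17 MHC class II genes, 6 were lower in cDC1 and 1 was higher. The lower genes were the peptide editors H2-DMa, H2-DMb1 and H2-DMb2 and the proteases Ctss, Ctsh and Lgmn, by 0.53 to 1.34 on the log2 scale. The higher gene was H2-Ob, which encodes a chain of the inhibitor of that editor, at 51.9 and 76.3 CPM against 22.0 and 17.1 CPM. The class II chain gene H2-Aa (log2 fold change 0.05) and the transactivator Ciita (0.24) did not pass. The list's median was -0.50, and -0.06 with 4 genes lower when only the C1q-bearing comparison barcodes were left out (Lgmn and Ctsh no longer passed). In the restricted fit 8 were lower and 2 higher (H2-Ob and Cd63), and by DESeq2 4 were lower and none higher.

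Of 21 sensing genes, 3 were higher in cDC1 and 2 lower, beside 6.57% higher and 7.7% lower over all genes. The higher genes were Tlr3 (double-stranded RNA), Tlr11 and Tlr12 (profilin), and the lower ones Tlr4 and Cd14 (lipopolysaccharide). Tlr12 had 21 and 8 UMIs in all members but 1 and 2 in members without other-class markers, and it and Tlr4 fell under the count filter of the restricted fit. Tlr3 had 38.9 and 60.6 CPM against 5.19 and 3.06 CPM. Cd14 had 74.6 and 36.3 CPM against 422 and 379 CPM, and members without other-class markers had no Cd14 UMI. Of 22 phagocytic and lectin receptors, 10 were lower, including the mannose receptor Mrc1 and the Fc receptor genes Fcgr2b and Fcgr3, and 2 were higher (Ly75 and Clec12a).

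Of 20 cytokine and chemokine genes, 5 were higher and 6 lower, beside 6.57% higher and 7.7% lower over all genes. Cxcl9, which attracts CXCR3-bearing T cells, had 993 and 900 CPM in cDC1 against 137 and 135 CPM in cDC2 (log2 fold change 2.84 ± 0.14, edgeR adjusted p = 0.000241), from 18 barcodes in each library. A single barcode held 229 of 612 Cxcl9 UMIs in control and 255 of 743 in CD4-Cre. Cxcl16, Ccl5, Ccl22 and Il27 were the other higher genes, and Il6, Ccl3, Ccl6, Ccl9, Ccl17 and Cxcl2 the lower ones. Il12b, a subunit of interleukin 12, was found in 1 member per library, with 9 UMIs in control and 65 in CD4-Cre, and in no cDC2 barcode.

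Costimulatory and inhibitory ligands numbered 9 higher and 3 lower of 18, with Cd40 at 224 and 280 CPM against 24.0 and 18.9 CPM. Over all genes 6.57% were higher and 7.7% lower, which is the background for each list of this paragraph. Among 21 chemokine and growth factor receptors, Ccr7, Flt3 and Cxcr3 were higher, and Ccr2, Csf1r and Csf2ra were among the lower genes. Transcription factors were split, with 8 higher (Mycl and Id2 among them), 5 lower (Irf4, Klf4, Zeb2, Cebpa and Cebpb) and 9 not passing of 22. Of 19 interferon response genes, 6 were higher and 1, Ifitm3, was lower. Of 18 genes known to respond to tissue dissociation, 10 were lower in cDC1, including Jun, Egr1 and Atf3, and none was higher. The targeted gene Pou2af1 had 0 UMIs in cDC1 and cDC2 barcodes of both libraries, and B cell barcodes had 223 and 247 CPM. Its absence from the members checks nothing about the Cre label.

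Cell cycle genes were higher in cDC1 in 10 of 20 cases, none was lower, and the median log2 fold change was 0.93. By DESeq2 only 2 of 16 were higher, Rrm2 and H2afz. Tyms had 22.7 and 43.6 CPM against 5.19 and 9.17 CPM (2.24 ± 0.34, edgeR adjusted p = 0.00806). Mki67 (1.23, edgeR adjusted p = 0.139) and Top2a (0.81, edgeR adjusted p = 0.178) did not pass. At least 3 cycling UMIs were found in 6 of 35 control members (17.1%) and 10 of 53 CD4-Cre members (18.9%), and in 1.39% and 5.00% of cDC2 barcodes. After every barcode was thinned to 3000 UMIs, the shares were 2.86% (1 of 35) and 5.88% (3 of 51), against 1.43% and 2.21% in cDC2. The members were deeper than the cDC2 barcodes, and their exact intervals after thinning (0.0723% to 14.9% and 1.23% to 16.2%) contained the cDC2 shares.

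A small mature state stood out within the members. At least 3 Ccr7 UMIs were found in 9 members, 6 of 35 in control and 3 of 53 in CD4-Cre, and in none of 284 cDC2 barcodes. A cDC2 barcode entered only with at least 2 UMIs of Cd209a, Clec10a and Mgl2, so Ccr7 barcodes without them were not counted. Whether mature cDC2 were missed in this way was not tested. None of the 9 carried other-class markers, and 6 had Xcr1 UMIs. Their Ccr7 UMIs numbered 14, 24, 26, 38, 49 and 70 in control and 6, 15 and 52 in CD4-Cre. Their depth was like that of the others, with medians of 18369 and 14493 UMIs. These members were chosen on Ccr7 after its values were seen, so what follows is a description with no test.

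The 9 Ccr7 members held most of the UMIs of several genes that were higher in cDC1. They had 99.0% of all Ccr7 UMIs, 92.5% of those of Fscn1 (the actin bundler fascin), 91.5% of Cacnb3, 92.2% of Tnfrsf4, 89.7% of Tm4sf5, 83.1% of Nudt17, 80.3% of Ccl5 and 74.9% of Serpinb6b. In contrast they had 7.85% of Gcsam, 5.63% of Snx22 and 1.1% of Cd207 UMIs. Bcl2l14 (63.9%), Ly75 (43.5%) and Ttc39a (38.8%) lay between.

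Several cDC1 genes were at lower levels in the 9 barcodes than in the other 53 members without other-class markers, and others were not. Summed Naaa, a lysosomal amidase gene, was at 61.8 and 0 CPM in Ccr7 members of control and CD4-Cre against 959 and 1038 CPM in the others. Wdfy4 was at 70.6 and 164 CPM against 523 and 535 CPM, and Ppt1 at 132 and 225 CPM against 1037 and 1546 CPM. Xcr1 was at 44.1 and 81.8 CPM against 289 and 376 CPM. Batf3 (309 and 307 CPM against 234 and 220 CPM) showed no lower level in them. Clec9a was at 150 and 368 CPM against 139 and 251 CPM. The rule asked for at least 2 Xcr1 and Clec9a UMIs together, so members low in Xcr1 had to hold Clec9a. Its level in them is therefore no result. Id2 was at 2047 and 1350 CPM against 1103 and 950 CPM. The interferon-inducible Ifi205 was at 79.4 and 532 CPM against 411 and 523 CPM in the sums. In CD4-Cre all 26 Ifi205 UMIs came from 1 of the 3 Ccr7 members, and the median was 0 CPM. Itgae, which encodes CD103, and Tlr3 had no UMI in the 9 barcodes, where 3 counts would be 26.5 CPM in control and 61.4 CPM in CD4-Cre.

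Presentation genes split in those barcodes too. B2m was at 5673 and 4418 CPM in Ccr7 members against 1793 and 1482 CPM in the others, and H2-K1 at 3061 and 2086 CPM against 1284 and 1150 CPM. Ciita, the activator of class II transcription, had 0 UMIs in the 9 barcodes, against 236 and 205 CPM. Cd74, the class II invariant chain gene, was at 14260 and 25810 CPM against 35490 and 36120 CPM, so it was lower in the Ccr7 members of both libraries.

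**Figure D4:**
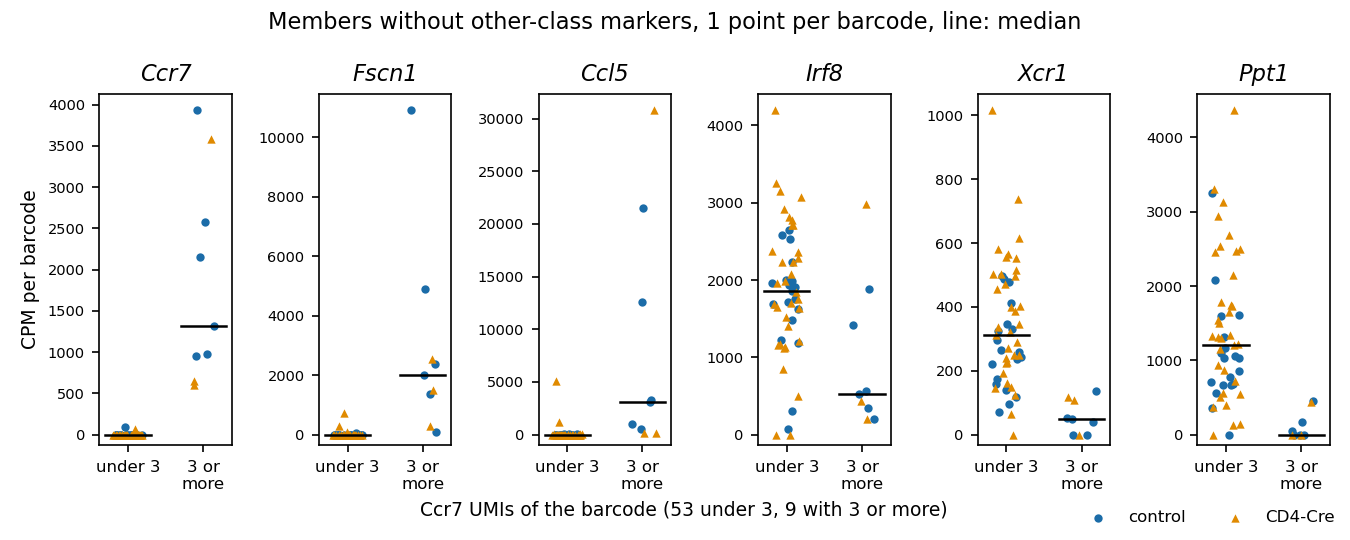
CPM per barcode of 6 genes in the 62 members without other-class markers, with fewer than 3 Ccr7 UMIs (53) or at least 3 (9); circles are control, triangles CD4-Cre, and lines medians. Fscn1 and Ccl5 are higher in most of the 9 barcodes with Ccr7 than in the others, with overlap, and Xcr1 and Ppt1 lie near the bottom of the range.

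Maturation and migration genes as a list were higher in cDC1 than in cDC2 in 17 of 23 cases, with Ccl17 the only lower one (median log2 fold change 2.23). The comparison asked for Cd209a, Clec10a and Mgl2 UMIs, so mature barcodes without them were not in it. Another fit left out the Ccr7 members, those with other-class markers, and the C1q-bearing barcodes of the comparison. In it 8 of 17 were higher and 2 lower, with a median of 0.71. The share over all genes is not given for that fit, so these counts have no background beside them. Nfkb2, Cd40, Cd86, Cd83, Marcks, Ccl5, Birc3 and Traf1 were the 8. Thus Cd40 and Cd86 passed with and without the Ccr7 members. The list was chosen with results of these libraries known and is not independent evidence of its direction.

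Between genotypes, summed UMIs of all members were compared for 6265 genes with at least 20 UMIs. At least 2-fold higher in CD4-Cre were 204 genes (3.26%) and at least 2-fold lower 325 (5.19%), and in 56 of these 529 genes 1 barcode held at least 0.5 of the UMIs of the higher library. Among members without other-class markers 209 of 5322 genes were higher (3.93%) and 228 lower (4.28%). With the Ccr7 members also left out, 200 of 4841 were higher (4.13%) and 114 lower (2.35%). No p-value applies with 1 library per genotype.

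Of the 16 lists, maturation and migration had the largest share of genes past 2-fold. Of 23 with enough UMIs, 14 were at least 2-fold lower in CD4-Cre and none higher, with a median log2 ratio of -1.24 beside -0.01 over all genes. Ccr7 UMIs numbered 223 in control members and 74 in CD4-Cre members (log2 ratio -2.01, exact 95% interval -2.41 to -1.63, counting error only), and Fscn1 had 403 and 79 (-2.77, -3.14 to -2.42). The median stayed at -1.24 without members carrying other-class markers. Without the 6 and 3 Ccr7 members, however, 1 of 12 genes was at least 2-fold lower (Tmem123) and 3 were higher, with a median of 0.01. Those barcodes were taken for Ccr7, a gene of the list, and fewer genes kept enough UMIs, so the change of the median is a description. B2m went the same way, at 2662 and 1686 CPM in all members (log2 ratio -0.66) and at 1793 and 1482 CPM without the Ccr7 and other-class members (-0.28).

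After thinning to 3000 UMIs, at least 3 UMIs of 8 maturation genes were found in 8 of 35 control members (22.9%) and 4 of 51 CD4-Cre members (7.84%). The difference was -15.0 percentage points, with an interval of -31.9 to 0.152 for counting error. No thinned cDC2 barcode reached that level (0 of 140 and 0 of 136, which allows up to 2.60% and 2.68% by exact intervals). The gate on Cd209a, Clec10a and Mgl2 limits this comparison as well. Without thinning the counts were 10 of 35 and 9 of 53 members, against 14 of 144 and 12 of 140 cDC2 barcodes. B cell barcodes, which express Ccr7 themselves, were at 21.1% and 20.1% after thinning. Whether mouse, pool or sort differed between the libraries cannot be told apart from genotype.

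Of 20 interferon response genes, 6 were at least 2-fold higher in CD4-Cre and 1 lower, with a median log2 ratio of 0.45. Over all genes the shares were 3.26% higher and 5.19% lower. Without the Ccr7 and other-class members, 6 of 17 were higher and none lower, with a median of 0.74, beside 4.13% and 2.35% of all genes. Single barcodes carried much of this. Isg15, an interferon-induced ubiquitin-like modifier, had 52 and 216 UMIs, of which 1 CD4-Cre barcode held 106, and the antiviral gene Rsad2 had 0 and 23 UMIs, all 23 from 1 barcode. Oasl1 had 4 and 81 UMIs, 60 of them from 1 barcode, and Ifit2 had 2 and 31 UMIs, 16 from 1 barcode. Of 16 cell cycle genes, 4 were at least 2-fold higher in CD4-Cre, beside 3.26% of all genes. Among them was Hist1h2ap, a histone gene with close paralogs, with 54 of its 76 UMIs from 1 barcode. Cycling UMIs were also concentrated. In CD4-Cre 1 member held 116 and 1 held 96, and the next highest held 12. The highest 2 in control held 39 and 31. Dmtf1, which encodes a cyclin D-interacting transcription factor, was spread over more barcodes, with 3 UMIs in 3 control members and 30 UMIs in 22 CD4-Cre members (log2 ratio 2.90, exact 95% interval 1.22 to 5.26). In members without other-class markers it had 3 and 18 UMIs.

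Of the 5 genes named as lowest in CD4-Cre, 2 had most of their UMIs in Ccr7 barcodes and 3 in members with other-class markers. Serpinb1a, a protease inhibitor, was counted 189 times in control members and 10 times in CD4-Cre members, and 88.9% of them lay in the 9 Ccr7 members. Without those and the members with other-class markers it had 18 and 3 UMIs, a log2 ratio of -3.30 beside -4.66 in all members. Socs2, a suppressor of cytokine signalling, had 45 and 4 UMIs, 75.5% of them in Ccr7 members. The complement gene C3 had 69 and 4 UMIs and none in members without other-class markers, and Clec4n, which encodes dectin-2, had 34 and 3. H2-M2 had 129 and 16 UMIs, a log2 ratio of -3.43 that was -0.28 without other-class members.

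**Figure D5:**
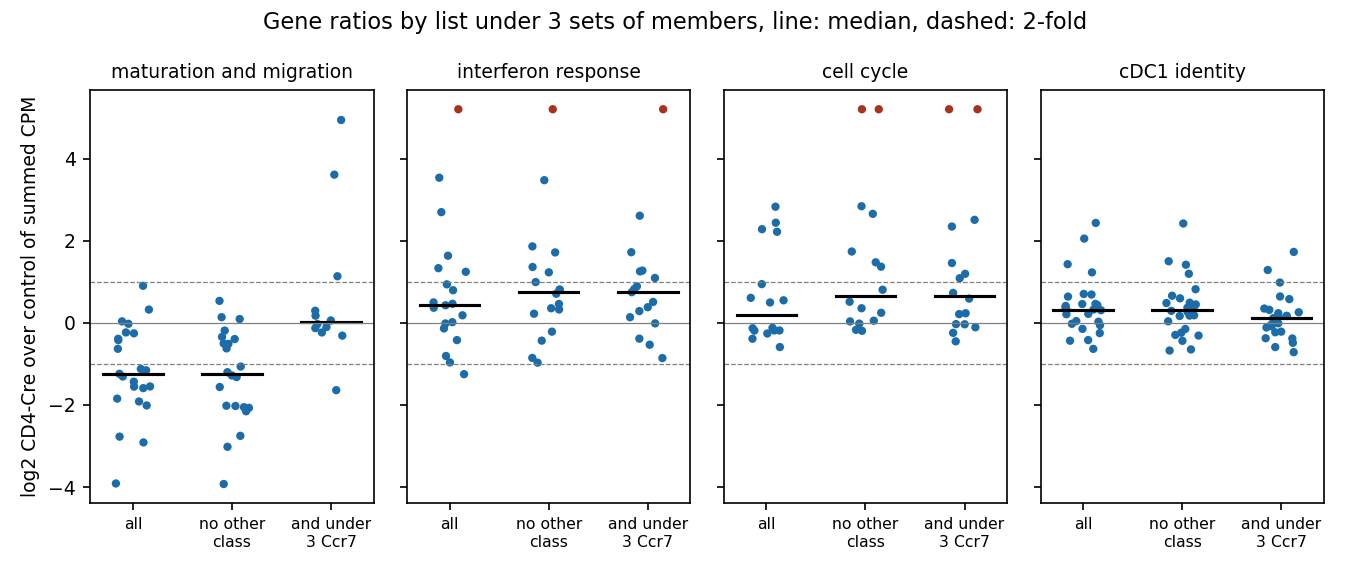
Log2 ratio of CD4-Cre over control of summed CPM for the genes of 4 lists with at least 20 UMIs, over all members, members without other-class markers, and those with fewer than 3 Ccr7 UMIs. Lines are medians, dashed lines 2-fold, and red points at the top genes with 0 control UMIs; the maturation median goes from -1.24 to 0.01 in the last set.

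Of 26 cDC1 identity genes with enough UMIs, 4 were at least 2-fold higher in CD4-Cre (Gpr33, Cd207, Cd8a and Il12b) and none lower, against 3.26% and 5.19% of all genes, with a median log2 ratio of 0.32. Cd207 had 22 and 69 UMIs in 7 and 16 members, and Cd8a, a coreceptor chain carried by lymphoid-tissue cDC1, 11 and 61 UMIs in 5 and 13 members. Of those 61 Cd8a UMIs, 19 came from 1 member with Siglech UMIs and no Xcr1 UMI, and 17 from 1 other member. Il12b was found in 1 member per library, with 9 and 65 UMIs. Without the Ccr7 and other-class members the median was 0.11 and Gpr33 and Cd8a stayed 2-fold higher. Irf8 (log2 ratio 0.31) and Batf3 (-0.02) were within 2-fold.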

How the data were processed

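UMI counts per gene and barcode of 4 libraries (10x Genomics 5′ kit) were used as the authors deposited them, raw and in whole numbers. Per the submitters' processing notes, Cell Ranger and mm10 were used; per the file headers the matrices carry software version 3.0.0. The annotation is not given in the sources used here. Barcodes were filtered and classed by the rule stated at the start. No doublet caller was run; T and B cell clauses remove only some doublets. The members and gene lists were chosen with earlier results of these data known.

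UMIs were summed per library and class. Genes with at least 10 UMIs in at least 2 of 4 sums were fitted with edgeR 4.0.16 (TMM, quasi-likelihood, library block, Benjamini-Hochberg), and checked on simulated data; DESeq2 1.42.0 (R 4.3.3) was an alternative. Named genes were the 12 with the largest log2 fold change each way among called genes with at least 50 UMIs, and, by genotype, 5 each way with at least 30 UMIs, over the conditions in the fixed rule. CPM are of total UMIs of the sum or barcode. Intervals are 95% (Poisson, Clopper-Pearson, conditional exact for ratios, Newcombe for differences) and cover counting error only. Thinning used 3000 UMIs. Gene positions come from GENCODE M21 (30934 of 31053 identifiers matched). Nothing says that libraries were replicated, so p-values rest on how far the class difference varied between 2 libraries, with spread shared over genes.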

Additional observations from a re-analysis of the deposited data

Results flagged for a closer look

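Nr4a3, a nuclear receptor gene induced by activation, moved in opposite directions by genotype in the 2 dendritic classes. In cDC1 members it was counted 6 times in the control library and 59 times in the CD4-Cre library (log2 ratio 2.88), and 40 of the 59 came from 1 barcode and 44 from members with Ccr7. In the cDC2 comparison the counts were 21 and 6 (log2 ratio -1.89). There was 1 library per genotype, so the difference was not tested.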

How the results depend on the processing

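The share of members moved with the gate. In control it was 0.504% with both genes required, 1.22% without the T and B cell clauses, 5.39% of barcodes without T and B cell UMIs and 0.241% after thinning. In CD4-Cre the same settings gave 0.498%, 1.16%, 7.74% and 0.535%; it was 0.574% with at least 3 UMIs and 0.558% without members carrying other-class markers. The difference was 2.34 percentage points with the narrower denominator. Genes higher and lower than cDC2 numbered 190 and 241 by DESeq2, 264 and 276 after thinning, 847 and 1050 without members carrying cDC2 markers, 886 and 1088 without members carrying any other-class markers, and 933 and 1127 among members with Xcr1; 1027 were lower with no filter. By genotype, genes 2-fold higher and lower numbered 49 and 96 with at least 50 UMIs and 64 and 147 with a pseudocount of 10 CPM, and 114 were lower without Ccr7 and other-class members. The cycling share in control was 0 with thinning to 1500 UMIs, and also without other-class members after thinning to 3000 UMIs. Without thinning the shares were 17.1% and 18.9% in all members. In members without other-class markers they were then 20% (5 of 25) and 21.6% (8 of 37). Over the alternatives run, the 24 genes named against cDC2 gave 313 values that could be computed (genes under a setting's count filter gave none). Of these, 307 were counted as unchanged in direction and, where a test was run, in call. They include 13 values without the CD4-Cre library and 10 without the control library, which carry no call. DESeq2 lost Bcl2l14, Gcsam, Cacnb3, Cd207 and Bcam, and dropping the T and B cell clauses from the comparison lost Tnfrsf4 (log2 fold change 1.17). The genes named by genotype gave 78 values that moved little and 4 that moved: Serpinb1a -3.30 without Ccr7 and other-class members, Hist1h2ap 1.07 without the 10% of barcodes with most UMIs, Nr4a3 4.43 with at least 3 UMIs of the gate, and C3 -3.04 with the pseudocount. Not every gene named by genotype gave a value in each setting. Without other-class members 6 did, all counted as moving little. With Ccr7 members also left out, 2 moved little and 1 moved. H2-M2, whose ratio without other-class members is given above, is not among the 4, so the tally does not show that these genes held. No value in the tally changed sign. With either library left out the fit had no residual degree of freedom, so those are values with no test. No paired analysis was possible because each genotype and tissue had 1 library; the library block in the class fit is given in the report, and without that block 550 genes were higher and 663 lower, and the 24 named calls held. Alternatives that drop members with other-class markers or Ccr7 were chosen after seeing the data.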

Other observations

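In the lymph node libraries, selected for CD3, 8 control barcodes and 1 CD4-Cre barcode passed the same rule; they were not compared.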
